A study of Mus musculus and synthetic construct with 33 samples.

Results

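The p53 pathway genes examined here are 32 of the 26754 genes listed in the organ tables: Trp53, which encodes p53, the regulators of p53, and known direct targets of p53, without Cdkn1a. They were chosen by gene symbol, and each symbol matched 1 gene identifier. Whole organs of E14.5 mouse embryos (heart, hindlimb, liver, lung) were profiled by sequencing of polyadenylated RNA. The wild-type (WT) and mutant (KO) embryos carried or lacked an intact linc-p21 gene (Trp53cor1), which neighbours Cdkn1a and makes a long noncoding RNA. The mutant allele is labelled Trp53cor1tm1.1Vlcg, the background of both genotypes is labelled 129S6/C57BL/6 and free of Neo, and both sexes entered every group. There were 3 WT and 3 KO libraries of heart, of hindlimb and of lung, and 5 WT and 4 KO libraries of liver, in all 27 libraries from 17 embryos of 7 litters. Heart and liver shared 5 embryos, liver and lung shared 4, and heart and hindlimb shared 1. In hindlimb each genotype came from 2 litters, and WT and KO had only part of these in common. In liver, WT came from 4 litters and KO from 3, so litters were not fully matched there either. Litter and genotype can therefore not be fully told apart in the hindlimb and liver differences below. Per the labels no group lacks p53 or received a damaging agent, so the dependence of these genes on p53 was not measured.

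p53 is a transcription factor that is held at a low level by the ubiquitin ligase Mdm2 and kept inactive by Mdm4. DNA damage and other stress release it, and it then switches on genes that stop the cell cycle, repair DNA, or start apoptosis. Mdm2 is itself a target, which closes a feedback loop, and embryos without Mdm2 or Mdm4 die from unrestrained p53. Cdkn1a, the target that encodes the cell cycle inhibitor p21, is the neighbour of Trp53cor1 and is left out of the list. Whether losing the noncoding RNA gene touches the wider p53 program is the question this comparison addresses.

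Sequences upstream of some members are shown first because p53 acts on direct targets by binding such letters in their DNA. RefSeq promoter windows (build GRCm38.p6, 250 bases before to 50 bases after each start) were found for 24 of the 32 members, and the consensus p53 half-site was searched in them. That half-site is its own reverse complement, so 1 search covers both strands. It was present in 11 of the 24 members (45.8%), against 9.55% of the 27025 genes with a window of the same length. The members are Trp53, Mdm2, Ppm1d, Bax, Ei24, Aen, Ccng1, Gadd45a, Sesn1, Ckap2 and Polk. In the windows below, all outside the exons of the deposited annotation, capitals mark each exact half-site.
Trp53, chr11:69580264-69580313, plus strand: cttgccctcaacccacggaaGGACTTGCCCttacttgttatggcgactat
Mdm2, chr10:117710915-117710964, minus strand: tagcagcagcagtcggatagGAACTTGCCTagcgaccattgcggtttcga
Ppm1d, chr11:85311102-85311151, plus strand: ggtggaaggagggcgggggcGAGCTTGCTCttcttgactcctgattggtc
Bax, chr7:45467070-45467119, minus strand: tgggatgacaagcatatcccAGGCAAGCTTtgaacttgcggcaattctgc
Ccng1, chr11:40755442-40755491, minus strand: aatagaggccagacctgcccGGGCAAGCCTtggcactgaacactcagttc
Ckap2, chr8:22185993-22186042, minus strand: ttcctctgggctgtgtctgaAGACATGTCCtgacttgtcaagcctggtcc
Cdkn1a (no member), chr17:29090886-29090957, plus strand: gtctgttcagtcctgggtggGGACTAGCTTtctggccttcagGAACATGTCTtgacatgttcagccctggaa

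The half-site began 75 bases upstream of the start in Trp53, 132 in Ppm1d, 185 in Ccng1, 186 in Mdm2, 201 in Bax and 203 in Ckap2. In Gadd45a (40 bases upstream), Ei24 (10 bases upstream) and Aen (11 bases downstream of one of its starts) it lay within an exon of the gene in the deposited annotation. Sesn1 (173 bases upstream) and Polk (231 bases upstream) had theirs before a start inside the annotated gene. No member had a full p53 site, which is a pair of half-sites with 0 to 13 bases between them, and 0.074% of all genes had one. Cdkn1a, printed for comparison, had one, with 12 bases between its half-sites. With up to 1 mismatch allowed outside the C and the G, 16 of 24 members (66.7%) and 54.2% of all genes held a half-site, a smaller gap between members and all genes than with the exact letters. Under the same allowance 1 of 24 members, Ccng1, had a full site (4.17%), close to the 3.09% of all genes. Cdkn1a then had a further full site, which began 51 bases upstream with 0 bases between its half-sites. The second half-site of that pair holds a mismatch and is in lower case above. A match is a description of letters and no evidence of binding, and the window does not cover introns, where p53 sites of some targets lie.

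**Figure D1:**
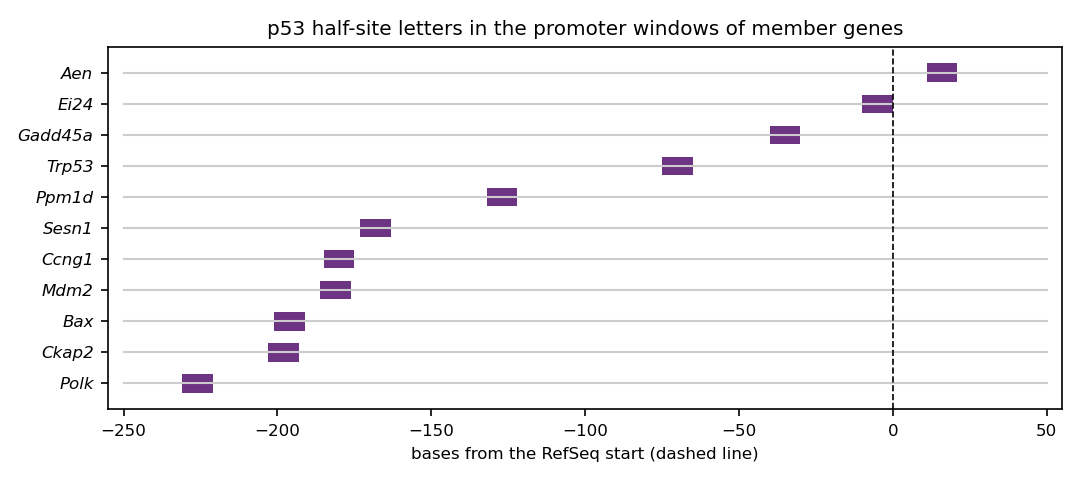
Position of the consensus p53 half-site (bar, 10 bases) in the promoter windows of the 11 members that hold it, as bases from the RefSeq start (dashed line), with the searched window as a grey line. The bars run from Polk at 231 bases upstream to Aen at 11 bases downstream.

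In the organ tables, 1 FPKM value (fragments per kilobase of transcript, scaled to library size) stands for all libraries of a genotype, so no spread between embryos accompanies any value below, and read depth is not stated. Trp53cor1 was 0.852 FPKM in WT heart and 0.710 FPKM in WT hindlimb and was listed at 0 in KO of both in the authors' deposited table. It was near 0 already in WT liver (0.0351 FPKM, 0 in KO) and WT lung (0.104 FPKM, 0.00505 in KO) and was not tested there, so its level is a weak check of the genotype in these organs. Each organ's markers summed highest in that organ among the WT pools. Heart muscle genes summed to 17342 FPKM in heart and next to 776 in lung and 716 in hindlimb, and hepatoblast genes to 24003 FPKM in liver and next to 26.5 in heart. Lung epithelium genes summed to 805 FPKM in lung and next to 16.4 in hindlimb, and limb genes to 234 FPKM in hindlimb and next to 73.5 in lung. Of the limb genes, Pitx1, Hoxd13, Prrx1 and Shox2 were highest in WT hindlimb. Tbx4 was higher in WT lung (63.5 FPKM) than in WT hindlimb (19.3), and Msx1 higher in WT heart (5.20) than in WT hindlimb (2.30). In KO lung the 8 heart muscle genes summed to 54.1 FPKM, and their part in the lung differences below was not tested. In KO hindlimb, erythroid genes were higher (sum 882 to 1382 FPKM, Hba-a1 and Hbb-y called of 6 tested). Genes of the heart muscle list were lower there (716 to 562 FPKM, Myh7 and Tnnt2 called of 5 tested). Most of that WT sum came from Actc1 (420 FPKM) and Tnni1 (187), while Nkx2-5, Myl7, Myh6 and Nppa were each at most 0.444 FPKM in WT hindlimb. The part of the erythroid and heart muscle lists in the hindlimb differences below was not tested. In bulk RNA, fewer cells of a type and less RNA per cell cannot be told apart.

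No member was called between the genotypes in any organ. A call is the authors' q-value under 0.05, and it was made for 0 of 32 tested members in heart, where 0.228% of all tested genes were called. Hindlimb had 0 of 31 (0.623% of all tested genes), liver 0 of 30 (0.406%) and lung 0 of 31 (0.707%). With the unadjusted p under 0.05, heart had 0 of 32 members beside 2.95% of all tested genes, and hindlimb 3 of 31 beside 5.97%. Liver had 1 of 30 beside 2.79%, and lung 3 of 31 beside 4.68%, so that 7 of 124 tested pairs of gene and organ lay under that threshold. By direction, hindlimb and lung each had 1 member higher and 2 lower in KO, where 2.51% and 3.46% of all hindlimb genes and 1.33% and 3.35% of all lung genes were higher and lower. The liver member was higher (2.28% of all genes higher, 0.511% lower), and heart had none in either direction (1.13% and 1.82%).

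Directions were close to evenly split. The value was higher in KO for 14 of 32 members in heart (47.0% of all genes) and for 17 of 31 in hindlimb (52.5%). It was higher for 16 of 30 in liver (49.1%) and for 16 of 31 in lung (49.8%). The members' median log2 fold change of KO over WT in the authors' deposited table was -0.0088 for heart, beside -0.014 over all tested genes, and 0.0056 for hindlimb, beside 0.010. It was 0.014 for liver, beside -0.0030, and 0.0078 for lung, beside -0.00075, again in the authors' deposited table.

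The larger of the WT and KO values was less than 10% above the smaller for 24 of 32 members in heart and 15 of 31 in hindlimb. The same held for 19 of 30 in liver and 16 of 31 in lung. In the authors' deposited table the median absolute log2 fold change was 0.093 for members in heart against 0.12 for all tested genes of at least 1 FPKM. Hindlimb had 0.14 against 0.10, liver 0.094 against 0.078, and lung 0.13 against 0.11 in the authors' deposited table. The smallest absolute log2 change called among those genes was 0.61 for heart, 0.47 for hindlimb, 0.50 for liver and 0.54 for lung, so a missing call does not show that a member was equal in both genotypes. Cdkn1a, outside the list, fell by 1.59 (heart), 2.17 (hindlimb), 1.49 (liver) and 1.17 (lung) on a log2 scale in the authors' deposited table, with q-values from 0.00845 to 0.0256. Tested members ran from -0.38 to 0.23 in heart and from -0.67 to 0.52 in hindlimb in the authors' deposited table. They ran from -0.37 to 0.40 in liver and from -0.65 to 0.38 in lung, so Cdkn1a lay below every tested member of each organ.

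**Figure D2:**
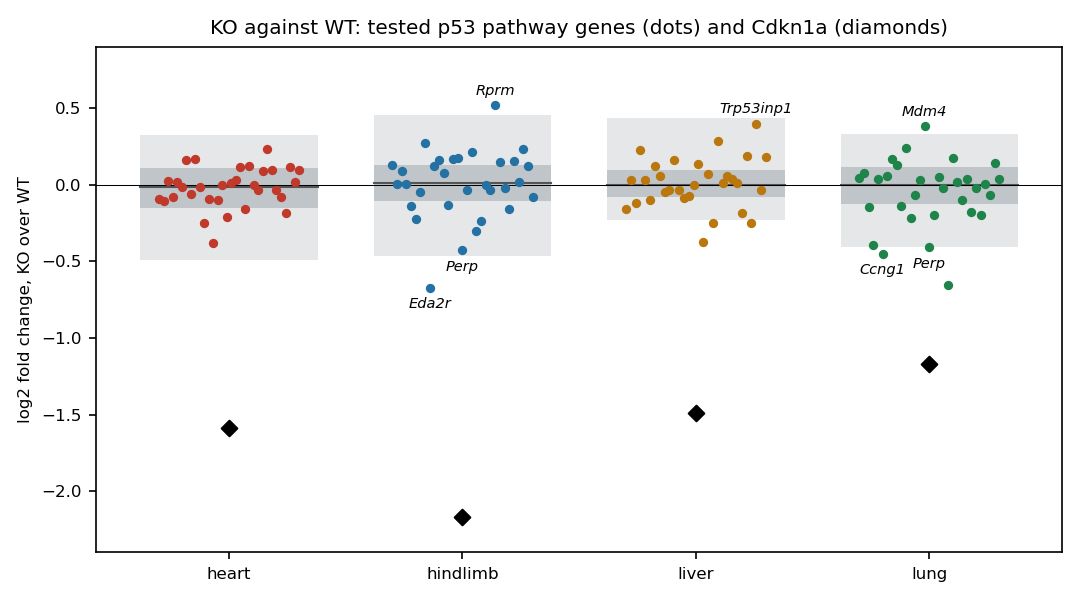
Log2 fold change of KO over WT (vertical axis) in each organ for the tested members (dots, in alphabetical order from left to right) and Cdkn1a (black diamonds), from the authors' deposited tables. Dark and light grey bands hold the central 50% and 90% of all tested genes, the grey line is their median, and named dots have an unadjusted p under 0.05. All tested members lie above the diamond of their organ, the lowest being Eda2r in hindlimb at -0.67.

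p53 and its regulators were well expressed in all 4 organs. Trp53 (ENSMUSG00000059552.7, mm10 chromosome 11, 69580359 to 69591873, plus strand) stood at 41.5 FPKM in WT and 36.6 in KO heart, 56.1 and 56.9 in hindlimb, 55.6 and 46.7 in liver, and 84.9 and 85.4 in lung. Lung was highest and heart lowest, with both genotypes apart from those of every other organ, and with rescaled tables liver lay above hindlimb. The log2 fold change of Trp53 was -0.18 in heart (p = 0.220) and -0.25 in liver (p = 0.0572) in the authors' deposited table. It was 0.020 in hindlimb and 0.0078 in lung in the authors' deposited table. In heart and liver the Trp53 value was thus lower in KO by 11.8% and 16.0%, without a call (q = 0.99995 and q = 1.0).

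Mdm2 (ENSMUSG00000020184.8, chromosome 10, 117688888 to 117710758, minus strand) had the smallest ratio of highest to lowest WT organ of all members, 1.18, from 23.1 FPKM in hindlimb to 27.2 in heart. With rescaled tables its ratio was 1.37, and Mdm4 had the smallest, 1.14. Its KO values were 27.1 FPKM for heart and for lung, 26.0 for hindlimb and 23.3 for liver. Heart was the highest in both genotypes, but by less than 1 FPKM over lung, and liver became the highest when the tables were rescaled to a common median. The log2 fold change of Mdm2 in the authors' deposited table was -0.0033 for heart, 0.17 for hindlimb, -0.074 for liver and 0.034 for lung. The level of Mdm2, a target and the main inhibitor of p53, thus did not follow the order of Trp53 over the organs, and among the other 31 members Ddb2 alone had the same order of WT values (5.39% of all genes do).

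Mdm4 (ENSMUSG00000054387.7, chromosome 1, 132989845 to 133025366, minus strand) stood at 19.97 FPKM in WT and 17.2 in KO heart, 25.1 and 28.3 in hindlimb, 18.05 and 18.02 in liver, and 23.5 and 30.6 in lung. Values of hindlimb and lung overlapped, as did those of heart and liver. In lung Mdm4 was higher in KO by 30.3%, with a log2 fold change of 0.38, p = 0.00790 and q = 0.512 in the authors' deposited table. The part of the heart muscle markers that were lower in the same KO lungs was not tested. Ppm1d, a phosphatase that reverses damage signalling to p53, was highest in liver at 19.3 FPKM in WT and 20.1 in KO, against 8.59 to 10.9 FPKM in the other organs. Of the 4 genes of this group, the value was higher in KO for 0 (heart), 3 (hindlimb), 1 (liver) and 4 (lung), some by differences near 0, and none was called.

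The 12 genes of apoptosis ran from under 1 FPKM to 198 FPKM in the WT organs. Bax, the pore-forming killer protein of mitochondria, stood between 55.2 and 71.5 FPKM in the 4 WT organs and between 58.7 and 69.3 in the KO organs, a WT ratio of 1.30. Hindlimb was lowest in both genotypes, while the order of the other organs differed between them. Ei24, a membrane protein of the endoplasmic reticulum, was highest in lung (68.5 FPKM in WT, 62.3 in KO) and lowest in liver (34.2 and 33.2). Its exons overlap those of a gene on the other strand, as do exons of Gadd45a, Plk3 and Ddb2, and whether the counting used strand is not stated in the labels or files, so reads of these 4 genes may include some from the partner.

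Perp (ENSMUSG00000019851.7, chromosome 10, 18845071 to 18857073, plus strand), a membrane protein of cell junctions and a p53 effector in cell death, differed most between organs within this group. It was 198 FPKM in WT and 148 in KO hindlimb, 63.1 and 63.6 in heart, 9.04 and 9.94 in liver, and 6.18 and 4.67 in lung. The WT ratio of highest to lowest organ was 32.01, and no organs overlapped. Perp was lower in KO hindlimb, with a log2 fold change of -0.42, p = 0.00540 and q = 0.265 in the authors' deposited table. It was also lower in KO lung, with a log2 fold change of -0.40, p = 0.0395 and q = 0.977 in the authors' deposited table. Markers of epidermis, a tissue rich in cell junctions, had lower values too. In hindlimb 1 of 4 tested markers was called (Krt10, a keratin of the outer layers, -0.66, q = 0.0285), the only 1 there with an unadjusted p under 0.05. In lung 1 of 4 was called (Krt5, a basal keratin, -2.22, q = 0.00845), and all 4 had an unadjusted p under 0.05. Both called markers were lower in KO in the authors' deposited table. The 4 markers (Krt5, Krt14, Krt10 and Trp63) summed to 709 FPKM in WT and 558 in KO hindlimb, and to 5.47 and 2.91 in lung, and none was at 0. Heart muscle markers, summed above, were also lower in KO lung, and Perp was higher in heart than in lung. The part of either marker list in the Perp values was not tested.

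Other genes of apoptosis were low to moderate. Eda2r, a receptor of the tumor necrosis factor family, was 1.48 FPKM in WT and 0.932 in KO hindlimb, with a log2 fold change of -0.67, p = 0.0127 and q = 0.420 in the authors' deposited table. It was highest in heart (2.05 FPKM in WT, 2.31 in KO), and the values of hindlimb (1.48 and 0.932) and lung (0.854 and 0.936) overlapped. In liver Eda2r (0.183 and 0.235 FPKM) was not tested by the authors. Skeletal muscle markers were lower in the same KO hindlimbs: 2 of 6 were called, and the 6 summed to 1022 FPKM in WT and 701 in KO, with none at 0. Their part in the Eda2r value was not tested.

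Trp53inp1, a stress protein that promotes autophagy and cell death, was 3.08 FPKM in WT and 4.06 in KO liver, with a log2 fold change of 0.40, p = 0.0188 and q = 1.0 in the authors' deposited table. Liver was its lowest organ in both genotypes, with 8.01 to 10.5 FPKM elsewhere. Phlda3, which restrains the survival kinase Akt, was also lowest in liver, at 10.2 FPKM in WT and 7.84 in KO, with a log2 fold change of -0.37 and p = 0.0594 in the authors' deposited table. It was highest in heart, at 29.7 and 30.3 FPKM. These liver differences ran in opposite directions. In the same KO livers, markers of other cell types were called higher: Myh6 of the heart muscle list (sum 16.8 to 25.5 FPKM, 1 of 6 tested called), Krt5 of the epidermis list (1.66 to 3.15, 1 of 3) and Stmn2 of the neuron list (0.762 to 2.66, 1 of 2). Myh6, Krt5 and Stmn2 were each at most 0.388 FPKM in WT liver. Of the heart muscle list, Myh7 alone had a lower value in KO (0.356 to 0.0960 FPKM, not tested). The part of these marker lists in the Trp53inp1 and Phlda3 values was not tested.

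Bbc3 and Pmaip1 encode BH3-only proteins, which trigger Bax. Bbc3 (PUMA) ran from 2.60 FPKM in WT hindlimb to 5.27 in WT heart, and Pmaip1 (NOXA) from 0.541 in WT lung to 2.93 in WT hindlimb. Both were lower in KO lung: Pmaip1 was 0.345 FPKM in KO lung (log2 -0.65, p = 0.0652) and Bbc3 4.01 in WT and 3.05 in KO lung (log2 -0.39, p = 0.148) in the authors' deposited table. In liver both were higher in KO, with log2 fold changes of 0.29 (p = 0.249) for Pmaip1 and 0.23 (p = 0.354) for Bbc3 in the authors' deposited table. Neither passed the test in any organ.

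The death receptors differed in their organs. Fas was highest in lung (3.19 FPKM in WT, 2.75 in KO) and lowest in hindlimb (1.07 and 1.13). Tnfrsf10b, the TRAIL receptor, was highest in hindlimb (4.69 and 5.21) and lowest in liver (0.842 and 0.960). Apaf1, the scaffold that activates caspases, was highest in hindlimb (14.7 and 14.8) and lowest in liver (6.94 and 7.09 FPKM). Aen, a nuclease of apoptotic cells, stood at 18.7 to 23.1 FPKM in all 8 pools, with liver overlapping lung, and heart overlapping hindlimb. For these 4 genes all p-values were above 0.25 in the authors' deposited table.

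Among the genes of apoptosis as a group, the value was higher in KO heart for 6 of 12, in hindlimb for 8 of 12, in liver for 7 of 11 tested and in lung for 3 of 12. The group medians of the log2 fold change were -0.0016, 0.042, 0.14 and -0.17 in the authors' deposited table, and 0 were called.

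Cell cycle and growth genes included the members with the largest contrasts between organs. Ccng1 (ENSMUSG00000020326.7, chromosome 11, 40748552 to 40755311, minus strand), cyclin G1, which directs a phosphatase to Mdm2, reached 91.8 FPKM in WT and 90.8 in KO heart. It was 24.4 and 20.9 in hindlimb, 22.2 and 20.8 in liver, and 22.9 and 16.8 in lung, so both heart values stood far above the rest, and hindlimb, lung and liver overlapped. In lung Ccng1 had the smallest p-value of any member in any organ, with a log2 fold change of -0.45, p = 0.00185 and q = 0.177 in the authors' deposited table. Heart muscle markers were lower in the same KO lungs: 5 of 8 were called, all lower, and the 8 summed to 776 FPKM in WT and 54.1 in KO, with Nppa at 0 in KO. Their part in the Ccng1 value was not tested. The value of Ccng1 was lower in KO in the other organs as well, with log2 fold changes of -0.014 in heart, -0.22 in hindlimb (p = 0.0985) and -0.099 in liver in the authors' deposited table.

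Plk2, a polo-like kinase, was 90.9 FPKM in WT and 94.0 in KO lung, 53.6 and 58.2 in heart, 37.0 and 42.9 in hindlimb, and 4.67 and 4.91 in liver. Organs did not overlap, and lung stood 19.4 times above liver in WT. Gadd45a, a stress sensor, had the opposite leaning: 61.7 FPKM in WT and 60.2 in KO liver, against 1.92 to 5.44 FPKM elsewhere. Heart was its lowest organ, at 2.49 and 1.92 FPKM, and gave the largest absolute difference of any member in heart, -0.38 on the log2 scale (p = 0.254), in the authors' deposited table. Btg2, an antiproliferative cofactor of messenger RNA decay, also peaked in liver (57.1 and 58.3 FPKM) and was lowest in hindlimb (10.1 and 9.14). The WT ratios of highest to lowest organ were 24.7 for Gadd45a and 5.68 for Btg2.

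Rprm (ENSMUSG00000075334.2, chromosome 2, 54084093 to 54085552, minus strand, 1 exon), Reprimo, a membrane protein linked to cell cycle arrest, was highest in hindlimb. It was 7.46 FPKM in WT and 10.7 in KO hindlimb, 2.87 and 2.68 in lung, 0.542 and 0.578 in heart, and 0.0886 and 0.323 in liver, where the authors did not test it. In hindlimb it was higher in KO by 43.3%, with a log2 fold change of 0.52, p = 0.00835 and q = 0.340 in the authors' deposited table. Limb markers were higher too in KO hindlimb, at a summed 234 FPKM in WT and 298 in KO, with 0 of 6 called, 3 of 6 at an unadjusted p under 0.05 (Msx1, Pitx1 and Tbx4) and none at 0. Of the cartilage markers 1 of 4 was called, Sox9, higher in KO (12.7 to 19.2 FPKM), and the part of these lists in the Rprm value was not tested.

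Gdf15, a secreted stress hormone, was 3.58 and 3.37 FPKM in liver and 1.08 and 1.01 in heart. Hindlimb (0.0351 and 0.0642) and lung (0.0444 and 0.161 FPKM) were not tested by the authors. The WT ratio of liver to hindlimb, 102, was the largest of all members, and rests on a hindlimb value near 0.

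Sesn1, a stress protein that restrains growth signalling, stood at 15.6 to 20.2 FPKM in all 8 pools, and Sesn2, its relative, at 2.92 to 4.81. Ckap2, a spindle protein, was highest in lung (38.5 in WT, 39.9 FPKM in KO). Zmat3, an RNA-binding zinc finger protein, ran from 0.874 FPKM in WT liver to 5.41 in WT hindlimb, and Plk3, another polo-like kinase, from 1.44 in WT heart to 2.47 in WT hindlimb. Plk3 was lower in KO in hindlimb (log2 -0.30, p = 0.224) and liver (log2 -0.25, p = 0.351) in the authors' deposited table, among the 5 largest differences of each organ. In this group the value was higher in KO for 6 of 11 tested heart values, 5 of 10 from liver, 4 of 10 from lung and 2 of 10 from hindlimb, and none was called.

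The 5 genes of DNA repair and nucleotide supply had WT ratios of highest to lowest organ from 1.23 (Polk) to 3.53 (Rrm2b). Ercc5, a repair endonuclease, was highest in hindlimb (13.7 FPKM in WT, 15.3 in KO) and lowest in liver (6.76 and 6.60), with lung overlapping hindlimb. Ddb2, which recognises ultraviolet damage, ran from 7.33 FPKM in WT heart to 12.1 in WT lung, and its partner Xpc from 4.43 in WT liver to 8.25 in WT lung. Polk, a translesion polymerase, stood at 3.43 to 4.24 FPKM in all 8 pools. Rrm2b, the p53-inducible subunit of ribonucleotide reductase, differed most, at 7.51 and 8.83 FPKM in heart against 2.13 and 2.19 in liver. In heart Ercc5 (log2 -0.25, p = 0.231) and Rrm2b (0.23, p = 0.159) were among the 5 largest differences, as was Ddb2 in hindlimb (0.27, p = 0.328), in the authors' deposited table. Of the 5 genes, the value was higher in KO for 2 (heart), 3 (liver), 4 (hindlimb) and 5 (lung), and none was called. The lung log2 fold changes were 0.036 to 0.24 in the authors' deposited table.

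**Figure D3:**
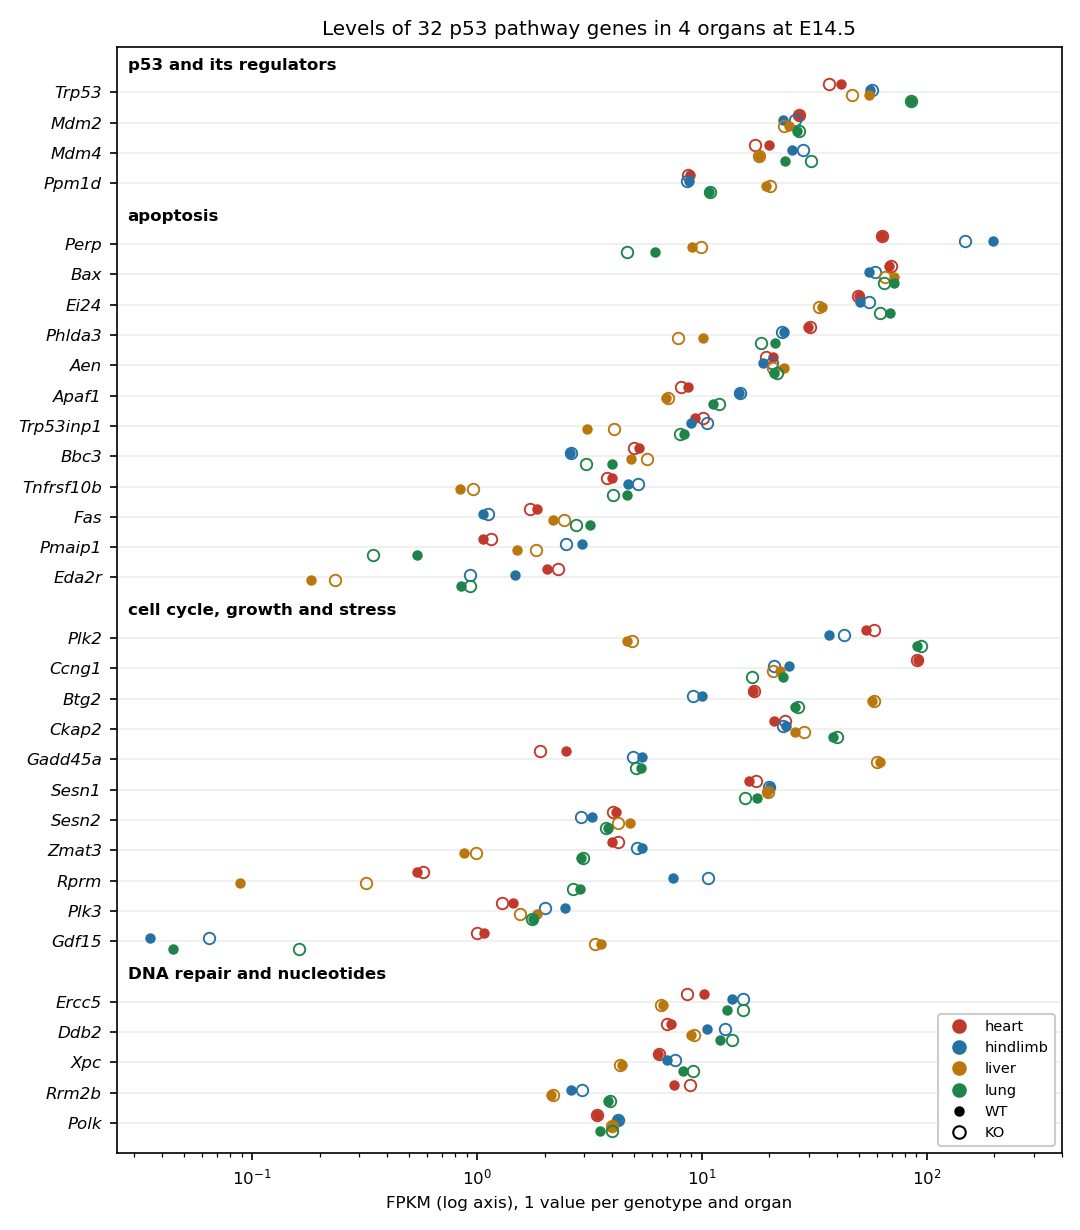
FPKM of each member (horizontal log axis) in the WT pool (filled) and KO pool (open) of each organ (color), grouped by role and ordered by mean WT level. For 25 of 32 members both circles of 1 organ lie above those of all other organs, as for Ccng1, where the heart circles are at 91.8 and 90.8 FPKM and all others at 16.8 to 24.4.

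The highest WT organ was at least 2-fold above the lowest for 21 of 32 members (65.6%), close to the 63.5% among 14084 genes with a mean WT level of at least 1 FPKM. The median ratio was 2.16 for members and 2.59 for all those genes. An organ in which the WT and KO values both lay above all values of the other organs existed for 25 of 32 members, 78.1%, against 77.4% of all those genes. That organ was hindlimb for 9 members (19.8% of all genes), lung for 6 (20.7%), heart for 5 (16.2%) and liver for 5 (20.7%). The same held at the low end for liver in 12 members (43.9% of all genes), for heart and hindlimb in 5 each (20.8% and 9.47%) and for lung in 2 (5.53%). Organ tables were scaled separately: with the tables brought to a common median, liver was the highest WT organ for 11 members instead of 6, and Mdm2, Bax, Bbc3, Sesn1 and Polk were the members that changed to liver. The KO pools come from other embryos than the WT pools but carry the mutation, so they are a second reading and not a replicate.

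**Figure D4:**
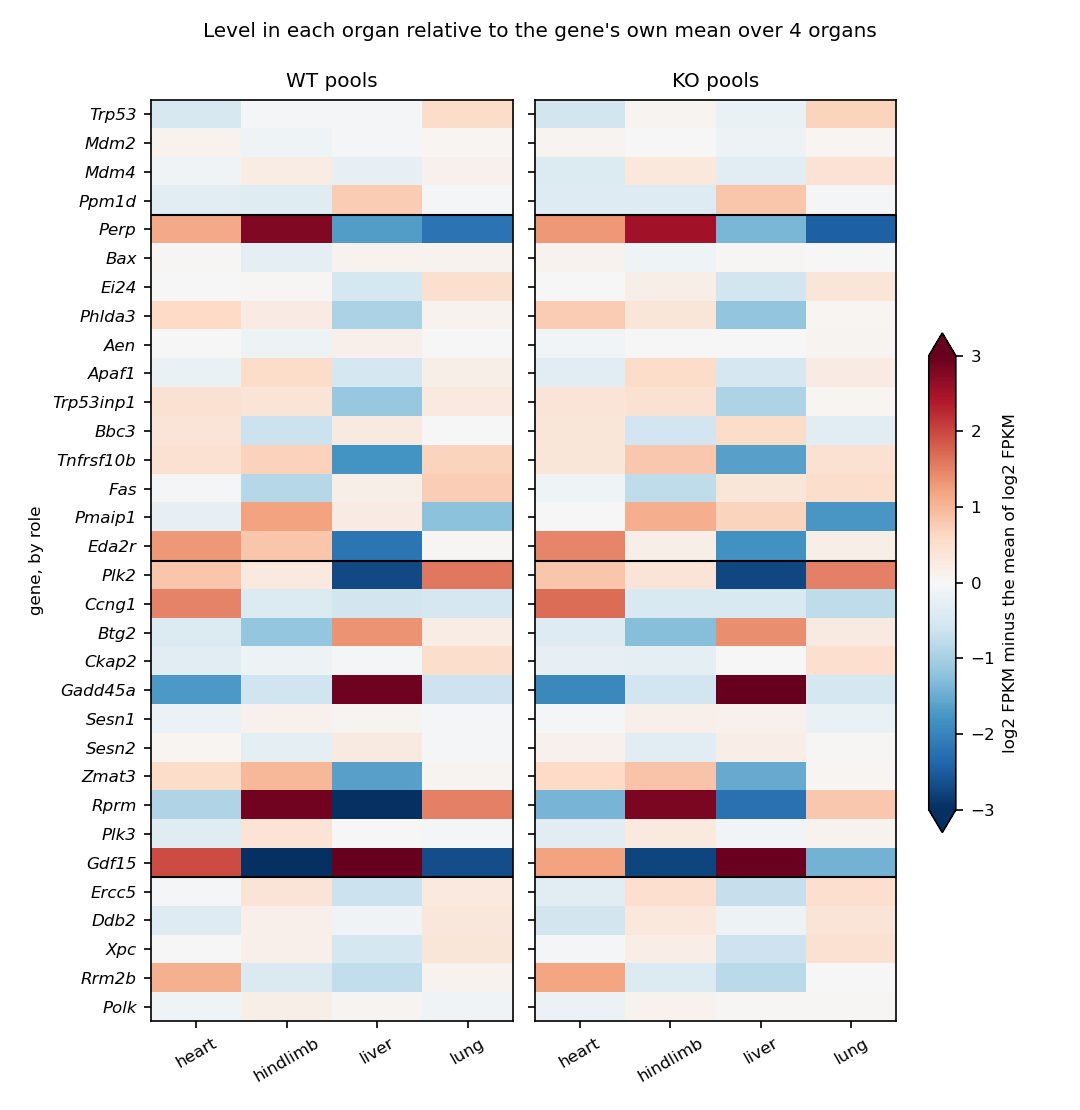
Log2 FPKM in each organ minus the mean of the gene over its 4 organs (color), in WT pools (left) and KO pools (right), with members grouped by role. The same organs stand out in both panels, such as hindlimb for Perp and Rprm and liver for Gadd45a and Gdf15, and colors end at 3 on the log2 scale.

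Of 29 members tested in all 4 organs, Plk2 and Rrm2b (6.90%) had a higher value in KO in each, beside 5.36% of all 12925 such genes. Ccng1, Gadd45a, Plk3 and Sesn2 (13.8%) had a lower value in each, beside 5.11% of those genes. Some of these values were near no change, and none was called. Examples are log2 fold changes of -0.014 for Ccng1 in heart, -0.018 for Plk3 in lung and 0.036 for Rrm2b in lung in the authors' deposited table. The organs partly come from the same embryos. Members with a half-site in the promoter window had median log2 fold changes of -0.014 (heart), -0.0041 (hindlimb), -0.044 (liver) and 0.0078 (lung) in the authors' deposited table. Members whose window lacked one had -0.081, 0.0050, -0.0025 and 0.011 in the same order.

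Further genes of the pathway, from 3 lists, had no calls either, where 0.228% to 0.707% of all tested genes per organ were called. Of 24 regulators and cofactors of p53, 21 to 23 were tested per organ and 0 were called, with 3 of 87 tested pairs of gene and organ (3.45%) at an unadjusted p under 0.05, where all tested genes had 2.79% to 5.97% per organ. The smallest p-values in that list were those of Trp63, a p53 relative and master regulator of epidermis, in lung (0.519 to 0.306 FPKM, log2 -0.76, p = 0.0298), Ep300, a histone acetyltransferase, in heart (-0.33, p = 0.0300) and Rpl5, a ribosomal protein that binds Mdm2, in hindlimb (0.41, p = 0.0355) in the authors' deposited table. Of 36 other reported p53 targets found in the tables, 33 to 35 were tested per organ and 0 were called, with 10 of 135 pairs (7.41%) at an unadjusted p under 0.05. Of these, 2 were higher in KO, where 1.13% to 2.51% of all tested genes per organ were, and 8 lower, where 0.511% to 3.46% were. Notch1 in heart (9.19 to 6.08 FPKM, log2 -0.60, p = 0.00495), Sfn, an epidermal 14-3-3 protein, in hindlimb (108 to 82.9 FPKM, -0.39, p = 0.00605) and Rps27l in lung (301 to 233 FPKM, -0.37, p = 0.00980) led that list in the authors' deposited table. Of 15 genes of the mitochondrial pathway of apoptosis, all tested in every organ, 0 were called. In that list 0 of 60 pairs had an unadjusted p under 0.05, beside 2.79% to 5.97% of all tested genes per organ. The smallest p-values there belonged to Cycs, cytochrome c, at 0.0567 in lung (log2 -0.42), 0.0819 in heart (0.42) and 0.0862 in hindlimb (0.41) in the authors' deposited table. Median log2 fold changes in the authors' deposited table, ordered heart, hindlimb, liver, lung, were -0.11, 0.032, 0.019 and 0.034 for the regulators. They were -0.062, -0.069, -0.027 and -0.0038 for the other targets, and 0.045, 0.047, 0.030 and -0.0085 for the mitochondrial genes, where all tested genes had the medians given above.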

How the data were processed

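Per the labels' protocols, RNA was extracted with TRIzol and libraries were made from polyadenylated RNA with a TruSeq kit. CASAVA 1.8.2, TopHat2 and the mm10 build are listed in the submitters' processing notes. Per the file headers, the authors deposited 1 FPKM value per gene and genotype, with a log2 fold change (held as a score, since some values are infinite), a test statistic (also a score), a p-value and a q-value. Which program computed FPKM and the test is not stated in the labels or files. Values repeat on each exon row of a gene and were read once per gene. The deposited log2 fold change of every tested member was within 0.01 of the ratio of its FPKM values.

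A call is the authors' q-value under 0.05 over all genes tested in that organ. No values per library are in the tables, so no standard deviation, replicate block or model over libraries was computed, and p-values rest on the authors' treatment of the libraries. Adjustment was repeated with the Benjamini-Hochberg method in Python 3.11.15 for genes of at least 1 FPKM and without chromosome 17, after a check on simulated data. Levels were compared between organs as FPKM, with tables also rescaled to the same median over 10952 genes of at least 1 FPKM in every WT organ. Members with a mean WT level of at least 1 FPKM, all 32, were set beside 14084 such genes. RefSeq promoters of 300 bases were searched for the p53 half-site.

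Named were Trp53, Mdm2 and Mdm4, members with an unadjusted p under 0.05, the 3 highest and the most variable of each role, the 5 largest differences per organ, and untested members. Of the other pathway lists, the 3 smallest p-values were named. Members and lists were chosen with earlier results of these data known. Adgre1, Tigar and Pidd1 did not match a symbol in the tables. The reporter assay of the locus was not used here.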

Additional observations from a re-analysis of the deposited data

How the results depend on the processing

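No member was called in any organ at a q-value under 0.05, with only genes of at least 1 FPKM adjusted, or without chromosome 17. At an unadjusted p under 0.05 the members numbered 3 in hindlimb, 1 in liver, 3 in lung and 0 in heart. Adjusted p-values of those 7 pairs of gene and organ ran from 0.209 to 1.0 among genes of at least 1 FPKM and from 0.194 to 1.0 without chromosome 17. Medians of the members' log2 fold changes stayed between -0.014 and 0.022 over pseudocounts of 1 and 0.1 FPKM, centring on all genes and the FPKM minimum; those of heart and hindlimb changed sign under centring. With tables rescaled to the same median, liver was the highest WT organ for 11 members. The count of members at least 2-fold apart was 17 with a pseudocount of 1 FPKM or rescaled tables and 21 in KO pools. No paired analysis was possible because the tables hold 1 value per genotype, and for the same reason leaving out single libraries was not run. Depth is not stated, so precision at low FPKM is unknown.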

Other observations

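The p53 relatives gave a pattern across organs that the comparison of genotypes does not use. Trp63 was 20.7 FPKM in WT and 16.95 in KO hindlimb, 0.519 and 0.306 in lung, 0.195 and 0.199 in heart, and 0.0108 and 0.150 in liver. Hindlimb was thus the highest organ for Trp63 and for Perp, a known target gene of both p53 and the Trp63 product. Perp and Trp63 parted in heart, where Perp was 63.1 FPKM in WT and 63.6 in KO while the 4 epidermis markers summed to 5.25 and 4.20 FPKM. Trp73 was 0.625 and 0.637 FPKM in hindlimb and at most 0.225 FPKM in the other 6 pools. Cdkn2a, whose alternative product Arf blocks Mdm2, was at most 0.261 FPKM in all 8 pools and listed at 0 in WT liver.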
